A study of Mus musculus with 24 samples.

Results

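The RNAs described here are 48 genes whose symbols begin with Snora (39 genes) or Scarna (9 genes) and that are typed as small nucleolar RNA (snoRNA) or small Cajal body RNA (scaRNA) in all 5 tables of murine cell surface RNA. They are 48 of the 35001 genes that the 5 tables share, and they were chosen by symbol and type, not by level. All 48 also had a row in the count tables of peripheral blood mononuclear cells (PBMCs). Of the Scarna genes, 2 are typed snoRNA and 7 scaRNA. Snora16a and Snora43 each had 2 gene identifiers, whose values were summed.

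Box H/ACA RNAs fold into hairpins that pair with a target RNA and guide the conversion of a uridine to pseudouridine, a modification of ribosomal and spliceosomal RNA. Each is held by a set of 4 proteins, the pseudouridine synthase dyskerin (Dkc1) with Nop10, Nhp2 and Gar1, and most are cut out of introns of host genes that often code for ribosomal proteins or translation factors. ScaRNAs guide modification of spliceosomal RNAs in Cajal bodies, where Wrap53 carries them, and some of them are of the box C/D kind, which guides ribose methylation. Among the 48 genes, Scarna2, Scarna9 and Scarna17 are box C/D guides, and Scarna6 and Scarna10 carry both kinds of box. Snora73a and Snora73b are copies of U17, an H/ACA RNA that is needed for the processing of ribosomal RNA.

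Surface RNA was profiled with AMOUR in 5 cell types of C57BL/6 mice labelled WT, with 3 libraries each. AMOUR anneals random primers with a T7 promoter to the RNA of intact fixed cells on lectin-coated beads and amplifies it in place. The spleen gave the lymphocytes, which were B cells, T cells (by a kit for CD8 T cells) and natural killer (NK) cells, and the marrow gave monocytes and, by depletion of lineage-marked cells, stem and progenitor cells (HSPCs). A second set of 9 libraries holds total RNA of blood PBMCs, all of the genotype wild type, 3 each in groups whose treatment the labels give only as ct, WT and Y. The age of the mice is not given in the sources used here, nor whether the PBMC libraries came from separate animals, so p-values measure the spread between the labelled replicates. For every cell type but HSPCs, a list of 5 marker genes was highest in the labelled libraries. The HSPC list summed to 93.3 TPM (transcripts per 1000000) in HSPC and 309 TPM in monocyte libraries, and the monocyte libraries held 1442 TPM of a neutrophil list. The NK libraries held 196 TPM (range 99.6 to 263) of the B cell list, against 567 TPM in B cells. The T cell libraries held 60.8 TPM (range 17.4 to 128) of the B cell list and 39.7 TPM of the T cell list.

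All 48 genes had a counterpart in GENCODE release M21 of the GRCm38 mouse genome, 41 by gene identifier and 7 by symbol. The sequences ranged from 70 to 414 bases (median 133) and from 33.3% to 64.1% GC. Of 49 annotated sequences, 22 lay within an intron of a host gene on the same strand, 21 overlapped an exon of at least 1 host transcript, and 6 had no host. The letters ACA stood 3 bases before the 3′ end in 33 of 40 Snora sequences (82.5%) and in 2 of 9 Scarna sequences. Across the release this spacing was found in 0 of 98 Snord (box C/D) sequences, in 19.3% of all 1558 snoRNA and scaRNA sequences, and in 3.17% of the 19314 transcripts of 60 to 400 bases. The 6 sequences below are those of the members with the clearest differences between cell types, of Snora16a, whose reads were divided between 2 identifiers, and of the near-identical U17 pair, with the terminal ACA in capitals where it stands at that spacing.
Snora9 (chr11:6528033-6528165, minus strand, overlapping an exon of the non-coding host Snhg15): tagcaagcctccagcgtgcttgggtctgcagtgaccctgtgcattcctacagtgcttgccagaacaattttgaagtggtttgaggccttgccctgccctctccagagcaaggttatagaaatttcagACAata
Snora28 (chr12:111540941-111541067, plus strand, overlapping an exon of Eif5): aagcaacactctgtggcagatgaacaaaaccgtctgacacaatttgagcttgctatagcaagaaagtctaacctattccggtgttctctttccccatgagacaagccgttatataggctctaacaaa
Snora52 (chr7:141448803-141448939, plus strand, overlapping an exon of Rplp2): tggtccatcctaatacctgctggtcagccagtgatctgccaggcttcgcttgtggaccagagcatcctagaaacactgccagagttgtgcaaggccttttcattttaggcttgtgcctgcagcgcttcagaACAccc
Snora16a (chr4:132309465-132309600, plus strand, overlapping an exon of the non-coding host Snhg12): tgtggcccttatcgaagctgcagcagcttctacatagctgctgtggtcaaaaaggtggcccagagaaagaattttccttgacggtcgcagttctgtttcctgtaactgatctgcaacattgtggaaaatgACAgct
Snora73a (chr4:132352775-132352979, minus strand, within an intron of Rcc1): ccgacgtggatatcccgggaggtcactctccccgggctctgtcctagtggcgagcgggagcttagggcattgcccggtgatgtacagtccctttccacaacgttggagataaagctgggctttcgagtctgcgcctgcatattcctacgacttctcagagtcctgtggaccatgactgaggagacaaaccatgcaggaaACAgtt
Snora73b (chr4:132352322-132352526, minus strand, within an intron of Rcc1): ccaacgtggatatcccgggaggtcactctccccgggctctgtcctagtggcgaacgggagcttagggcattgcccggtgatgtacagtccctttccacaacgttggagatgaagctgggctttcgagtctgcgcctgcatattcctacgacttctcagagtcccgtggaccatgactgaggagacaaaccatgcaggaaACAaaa
In Snora28 the annotated end follows the letters ACA after 2 bases, so it is printed without capitals. Snora73a and Snora73b differed at 7 of 205 positions (96.6% identity), so reads can be split between them and their single values are uncertain. The sequences of 19 members were also contained in longer annotated transcripts, and for these the estimate of TPM depends on how reads were divided. Snora9, Snora28, Snora52 and Snora16a are among them. Snora52 lies in a retained-intron transcript of Rplp2 that had a mean of 7.93 TPM over the 15 libraries, above the 5.99 TPM of Snora52 itself. The mean over 15 libraries had a median of 14.4 TPM in those 19 members and of 5.27 TPM in the other 29.

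The first question was how much of the surface RNA these genes made up. Their summed TPM was lowest in B cells at 273 ± 69.4, followed by HSPCs (417 ± 13.2), NK cells (458 ± 162) and T cells (461 ± 83.5), and highest in monocytes at 825 ± 59.6 (mean ± SD, n = 3 each), between 0.0222% and 0.0872% of a library. The monocyte libraries lay between 758 and 872 TPM and did not overlap the other 12, which lay between 222 and 631 TPM. The other 4 cell types overlapped each other in part, and NK cells had the widest spread (310 to 631 TPM). The 104 Snord genes, which are box C/D guides, summed to 3587 TPM in HSPCs, 11828 in monocytes, 12036 in B cells, 20660 in NK cells and 42982 in T cells. The members therefore made up 1.07 ± 0.192% of member plus Snord TPM in T cells, 2.28 ± 0.567% in B cells, 2.15 ± 0.530% in NK cells, 6.55 ± 0.635% in monocytes and 10.6 ± 1.71% in HSPCs (n = 3 each). This share, which no rescaling of a library changes, was lowest in T cells and highest in HSPCs, and the HSPC (9.15% to 12.5%) and monocyte (5.95% to 7.21%) libraries overlapped with no other group.

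TPM is a share of a library, and ribosomal RNA together with 3 same-valued transcripts (Gm55936, Gm55094 and Gm55118) took 86.9% to 91.0% of the HSPC libraries and 49.4% to 74.8% of the other 12. Every comparison was therefore repeated on TPM rescaled to 1000000 without those entries, which multiplied values by 7.63 to 11.1 in HSPCs and by 1.98 to 2.04 in monocytes. On this scale the summed level was 3859 ± 602 TPM for HSPCs, 1687 ± 101 for monocytes, 1362 ± 441 for NK cells, 1155 ± 134 for T cells and 1056 ± 305 for B cells. The order of HSPCs and monocytes thus turned with the scale, while both lay above the mean of B cells on either one. Monocytes were sequenced on another platform than the other 4 cell types, and their table lists 149488 transcripts against 102168 in the other tables, so that platform, transcript set and cell type cannot be told apart for them. This bears on every monocyte TPM, values of 0 included. In bulk libraries, fewer cells of a type and less RNA per cell cannot be told apart either.

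**Figure D1:**
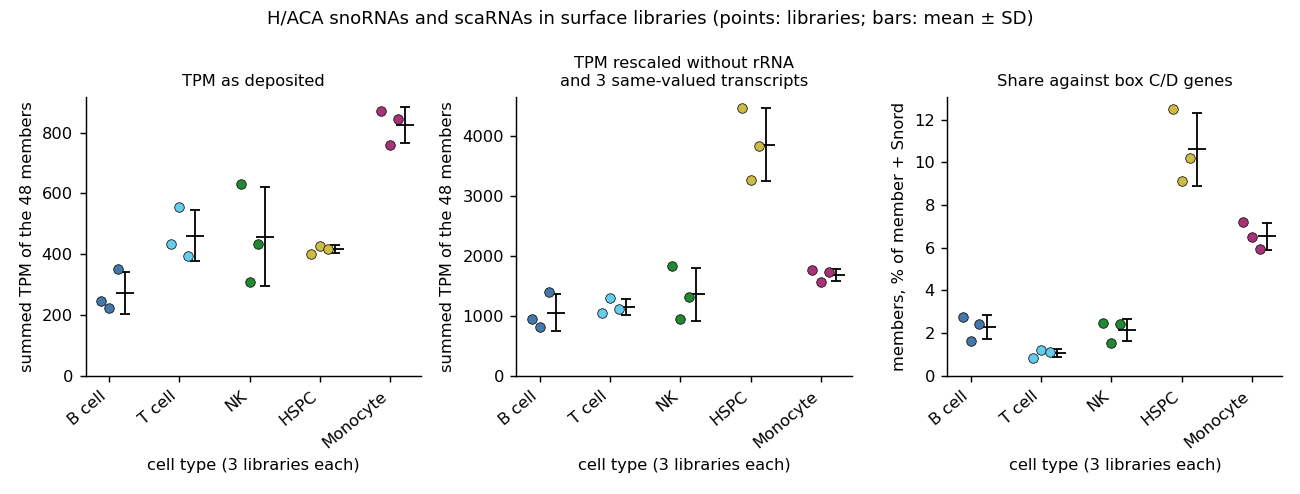
Summed TPM of the 48 H/ACA snoRNA and scaRNA genes per surface library as deposited (left) and after rescaling (middle), and their share of member plus Snord TPM in % (right), with 3 libraries per cell type as points and mean ± SD as bars. Monocytes were highest as deposited (758 to 872 TPM), and HSPCs were highest after rescaling and in the share (9.15% to 12.5%).

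Over the 15 libraries together, the member with the highest mean was Snora16a, at 37.0 TPM. By cell type it ranked 1 in B cells, T cells and HSPCs, but Snora73a led in NK cells (41.4 TPM, against 24.9 for Snora16a) and Snora61 in monocytes (62.4 TPM, against 40.5). In the mean of all libraries Snora16a was followed by Snora57 (30.1 TPM), Snora61 (29.8), Snora73a (26.9), Snora64 (25.1), Snora9 (20.8), Snora21 (19.7), Snora68 (18.7), Snora28 (17.4), Snora81 (16.3), Snora44 (16.2) and Snora24 (16.0). Several of these lie in genes of the translation apparatus, such as Snora64 in Rps2, Snora21 in Rpl23, Snora28 in Eif5 and Snora81 in Eif4a2. Snora16a, Snora44 and Snora61 share the host Snhg12. A mean of at least 10 TPM was reached by 18 members and of at least 1 TPM by 45, and Snora15, Snora19 and Scarna13 fell below 1 TPM. Snora19 had the same values as Gm54426 in every library and cannot be told apart from it. In total 33 members were above 0 in all 15 libraries.

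With a mean above 50 TPM as the mark of an abundant surface RNA, 0 members passed in the lymphocytes, 1 in HSPCs (Snora16a) and 2 in monocytes (Snora61 and Snora28), against 0.669% to 3.08% of all genes. After rescaling 18 passed in HSPCs, 13 in monocytes, 11 in NK cells, 8 in T cells and 6 in B cells, against 1.34% to 6.56% of all genes. Above 10 TPM the numbers were 27 in monocytes, 18 in NK cells, 16 in T cells, 11 in B cells and 10 in HSPCs, against 16.1% of all genes in monocytes and 1.63% to 2.53% in the other cell types. After rescaling they were 40 in monocytes, 39 in HSPCs, 32 among T cell means, 29 for NK cells and 27 for B cells. Among all genes HSPCs likewise moved, from the lowest share of 1.63% to 11.7%, with 24.4% in monocytes and 3.30% to 8.49% among lymphocytes. The median coefficient of variation between replicates was 23.0% in HSPCs and 35.7% to 49.2% in the other cell types, over the 43 to 45 members above the limit of 1 TPM. The rank order of the members was alike in the lymphocytes and HSPCs (Spearman's rho across the 48 members, 0.82 to 0.86), and less alike between these and monocytes (0.52 to 0.58). These rho values describe genes of shared libraries, which are not independent replicates. The level was only weakly related to length (rho = -0.17) and GC content (rho = 0.17) across the 48 members.

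**Figure D2:**
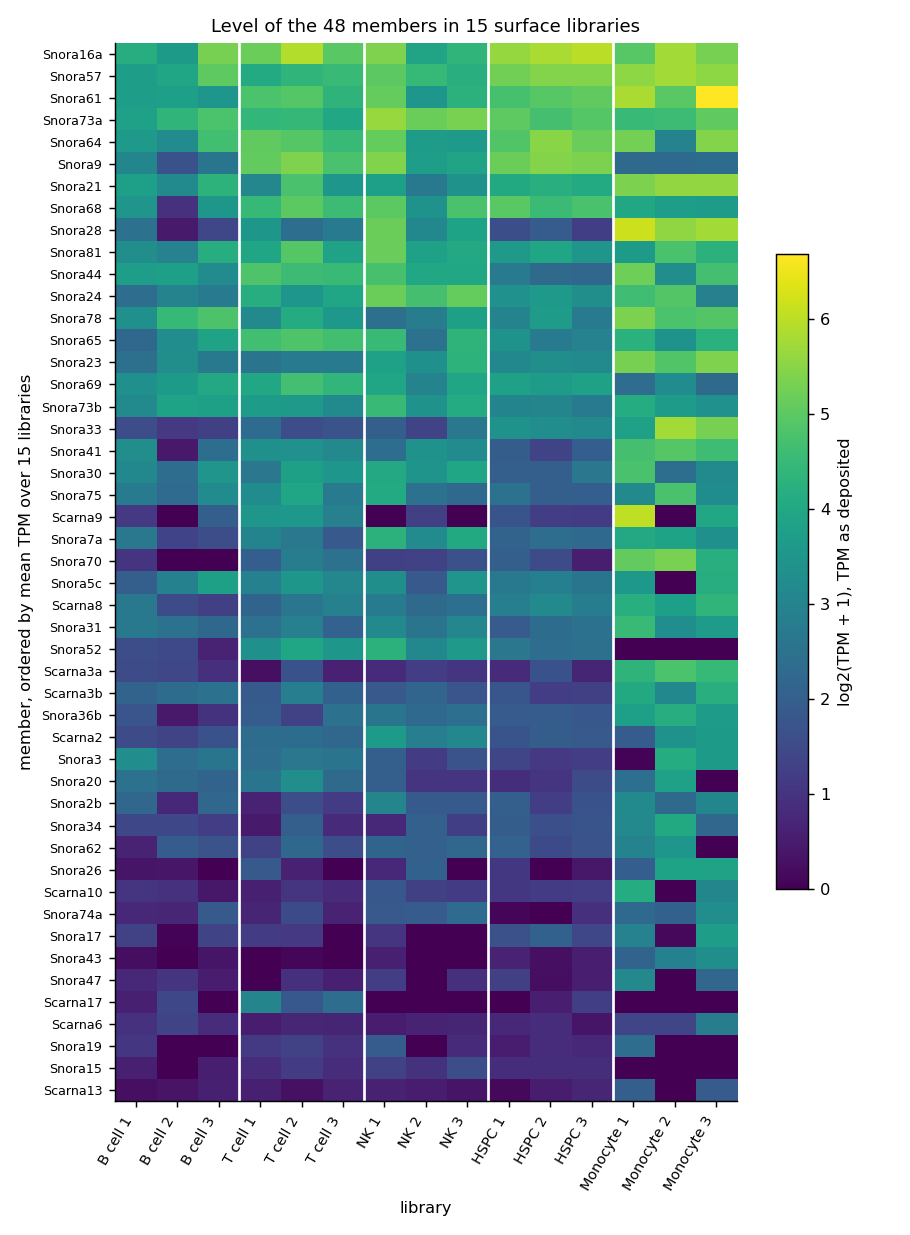
Level of each of the 48 members (rows, ordered by mean TPM) in the 15 surface libraries (columns) as log2(TPM + 1) of the deposited values. Snora9 and Snora52 are dark in the 3 monocyte libraries, where Snora28, Snora70 and Scarna3a are brighter than elsewhere.

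The deposited TPM of Snora16a was divided between 2 identifiers of the same symbol. Its first identifier (ENSMUSG00000065097.3) held 16.8, 11.5 and 38.7 TPM in the B cell libraries and 30.0, 52.7 and 38.8 TPM in monocytes, while the other (ENSMUSG00002075525.1) held under 0.001 TPM in each of these. In NK cells the second identifier held 40.5, 14.0 and 19.8 TPM and the first 0.606 TPM or less. The T cell libraries were split by library, with 35.5, 44.4 and 0.00907 TPM under the second identifier and 0, 15.1 and 30.3 TPM under the first. The sum was steadier, at 35.5, 59.5 and 30.3 TPM in T cells and 48.5, 55.7 and 63.0 TPM in HSPCs. In GRCm38 the release M21 places 2 Snora16a entries 1 base apart, at chr4:132309464-132309600 and chr4:132309465-132309600. The second surface identifier was not in that release, and whether both identifiers stand for the same RNA was not tested.

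**Figure D3:**
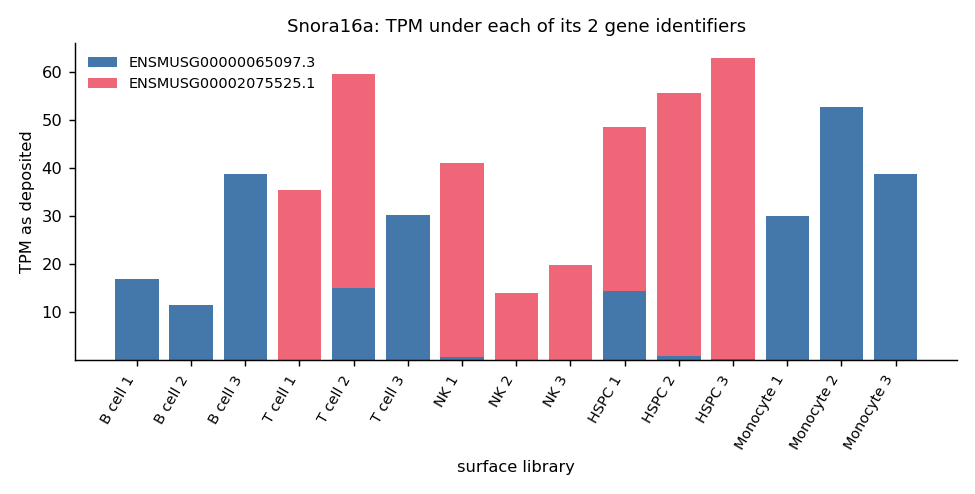
TPM of Snora16a in each surface library as deposited, stacked by its 2 gene identifiers. Nearly all TPM stood under the first identifier in B cells and monocytes and under the second in NK cells, and the T cell libraries differed from each other.

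Members were then compared between cell types with limma on log2(TPM + 1), in a single model for the 15 libraries, and p-values were adjusted by Benjamini-Hochberg across the genes tested (10312 genes with a mean of at least 1 TPM, 45 of them members; 13771 genes and all 48 members after rescaling). A member was called at an adjusted p below 0.05, and fold changes are log2 differences on that scale, which understates changes of scarce RNAs. Each comparison among T cells, B cells and NK cells set 1 type against the mean of the other lymphocyte types. A call therefore need not hold against each of them. These comparisons share their libraries.

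In T cells, isolated with a kit for CD8 T cells, 7 of 45 members were higher than the mean of B cells and NK cells. This is 15.6%, against a background of 4.31% of all genes. The 7 were Scarna9, Scarna17, Snora9, Snora70, Snora65, Snora52 and Snora69, of which Scarna17 passed the limit of 1 TPM only through the T cells. Only Snora23 was lower (1 of 45, against 51.2% of all genes). The median log2 fold change was 0.16 over the members and -0.46 over all genes tested. At a mean of at least 10 TPM the share of higher members lay closer to that of all genes (values under processing below). After rescaling, 5 of 48 members were higher (background 2.63%) and 4 lower (background 62.6%), with medians of -0.08 over the members and -0.84 over all genes. Scarna9, Scarna17, Snora9, Snora52 and Snora70 were higher and Snora23 lower on both scales. Of these, Snora52 lay above B cells only. Its means as deposited and after rescaling were 11.3 and 28.5 TPM in T cells. They were 12.5 and 37.2 TPM in NK cells and 1.45 and 5.55 TPM in B cells.

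Snora9 stood at 32.8, 40.9 and 26.2 TPM in T cells, at 7.42, 2.23 and 5.06 TPM in B cells and at 41.9, 12.3 and 13.9 TPM in NK cells. T cells lay above B cells throughout and overlapped NK cells through NK replicate 1. The log2 fold change of Snora9 was 1.68 ± 0.36 (SE; limma adjusted p = 0.00265). Scarna17, a box C/D scaRNA, stood at 7.25, 2.58 and 4.22 TPM in T cells, at 0.506, 1.73 and 0 TPM in B cells, and was listed at 0 TPM in the 3 NK libraries. The groups did not overlap as deposited, but Scarna17 passed the limit of 1 TPM only through the T cells (0.341 TPM over the other 12 libraries), so its deposited test carries no weight. After rescaling, where it passed without them, T cell replicate 2 overlapped a B cell library and the log2 fold change was 2.83 ± 0.68 (limma adjusted p = 0.00291). Snora65, hosted by Rpl12, stood at 24.3, 27.4 and 24.3 TPM in T cells, above the 3.68 to 21.9 TPM of the B cell and NK libraries (log2 fold change 1.27 ± 0.43). Leaving out 1 library ended the call of Snora65 (B cell 1 or any T cell library, limma adjusted p up to 0.0773) and of Scarna9 (B cell 2, T cell 1, T cell 2 or NK 3, up to 0.103), and 11 of 15 single libraries ended those of Snora69 (all but B cell 3, NK 1, NK 3 and monocyte 2) and Snora23 (all but B cell 1, NK 1, NK 2 and monocyte 2). The count of higher members was 3 without T cell replicate 1 (3.39% of all genes in that fit), 4 without T cell replicate 2 or 3 (3.29% and 3.25%) and 11 without NK replicate 1 (4.75%). That of lower members was 3 without T cell replicate 2 (52.7%), 2 without B cell replicate 1 (42.3%) and 0 without any 1 of 9 libraries (B cell 3, NK 3, T cell 1 or 3, monocyte 1 or 3, or an HSPC library; 24.0% to 54.2% of all genes). Without T cell replicate 1 or 3, Scarna17 fell below the limit of 1 TPM and was not tested.

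In B cells, 9 of 45 members were lower than in T cells and NK cells (20.0%, against 7.74% of all genes) and 0 were higher (against 19.9% of all genes, with 1 member and 27.9% of all genes at an unadjusted limma p below 0.05). The 9 were Snora52, Snora9, Snora28, Snora68, Snora24, Snora70, Snora7a, Scarna2 and Snora36b. All 9 were also lower after rescaling, where 10 of 48 members were lower (background 6.9%) and Snora78 and Scarna6 were higher (2 of 48, background 36.4%). Without B cell replicate 2 the rescaled lower members numbered 4, against 5.29% of all genes. The median over the members was -0.51 as deposited and -0.14 after rescaling, against 0.14 and 0.45 over all genes. With a limit of 10 TPM on the mean, the share of lower members lay closer to that of all genes (values under processing below).

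Snora52 stood at 2.00, 1.77 and 0.596 TPM in B cells, at 9.18, 14.1 and 10.7 TPM in T cells and at 18.7, 7.73 and 11.1 TPM in NK cells. The B cell libraries lay below all others of this comparison, with a log2 fold change of -2.40 ± 0.25 (limma adjusted p = 6.93e-06). The part of read division between Snora52 and the Rplp2 transcript that contains it was not tested. Snora28 stood at 4.69, 0.398 and 1.66 TPM in B cells, against 4.35 to 10.6 TPM in T cells and 7.68 to 34.9 TPM in NK cells, so that B cell replicate 1 overlapped the T cells. Its log2 fold change was -2.01 ± 0.46 and that of Snora9 was -2.26 ± 0.36. The call of Snora68 (-1.88 ± 0.50) rested on B cell replicate 2, at 0.936 TPM against 10.2 and 10.5 TPM in the other B cell libraries, and without it the limma adjusted p was 0.0744 and 6 members were lower (background 5.41%).

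In NK cells, 9 of 45 members were higher than in B cells and T cells, a share of 20.0% that was close to the background of 20.2%, and 1 was lower (background 3.3%). After rescaling 8 of 48 were higher (background 18.7%) and 1 lower (background 2.89%), so the numbers are no result about these genes as a class. Single members differed. Snora24, hosted by Snhg8, stood at 35.2, 25.0 and 33.045 TPM in NK cells, at 16.9, 10.4 and 14.1 TPM in T cells and at 4.21, 6.89 and 5.85 TPM in B cells. The 3 cell types did not overlap as deposited, and the log2 fold change of NK cells was 1.70 ± 0.36 (limma adjusted p = 0.00423). After rescaling NK cells still lay apart, but T cell replicate 2 (24.5 TPM) fell below B cell replicate 2 (25.3 TPM). Snora73a stood at 49.2, 35.4 and 39.5 TPM in NK cells, above the 13.2 to 26.5 TPM of B cells and T cells (1.08 ± 0.26, limma adjusted p = 0.00808). The ratio of Snora73b to Snora73a was 0.273 to 0.444 in NK cells and 0.486 to 0.691 in B cells and T cells. The part of read division between these near-identical RNAs was not tested. Scarna2, a long box C/D scaRNA, stood at 11.5, 6.23 and 7.57 TPM in NK cells and at most at 4.16 TPM in the other lymphocytes (1.27 ± 0.30). Snora28 (1.87 ± 0.46), Snora7a (1.66 ± 0.33) and Snora52 (1.25 ± 0.25) were higher too. Snora28 overlapped the T cells, with NK replicate 2 at 7.68 TPM and T cell replicate 1 at 10.6 TPM. Snora52 stood at 7.73 to 18.7 TPM in NK cells and at 9.18 to 14.1 TPM in T cells. It lay clear of B cells only. The lower member was Scarna17, which passed the limit through the T cells (after rescaling -2.53 ± 0.68, limma adjusted p = 0.0175). The call of Snora23 ended without NK replicate 3 (limma adjusted p = 0.0535), and that of Snora74a ended in 8 of 15 cases, without B cell 1 or 2, T cell 1 or 3, HSPC 1 or 2, or NK 2 or 3. The count of lower members was 2 without B cell replicate 1 (background 3.36%) or any 1 of the monocyte libraries (3.63% to 3.65%), and 0 without T cell replicate 1 or 3 (3.68% and 2.72%).

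HSPCs were set against the 3 lymphocyte types together. As deposited, 3 of 45 members were higher (6.67%, background 7.59%) and 6 lower (13.3%, background 20.9%). The lower members numbered 1 with no filter on low values (background 5.59%) and 3 of 18 at a mean of at least 10 TPM (background 43.9%), and the higher ones 5 with log2(TPM + 0.1) (background 10.4%) and 5 without the monocyte libraries (background 7.37%). After rescaling 29 of 48 were higher (60.4%, background 59.1%) and 0 lower (background 7.76%, with 0 members and 8.36% of all genes at an unadjusted limma p below 0.05). The shares of higher members lay near those of all genes on either scale, and the shares of lower members lay below them. The member medians were -0.12 and 1.24, against -0.15 and 0.80 over all genes. Snora33, Snora9 and Snora57 were higher on both scales. As deposited, Snora9 stood at 35.1 to 42.7 TPM in HSPCs. It overlapped T cells (up to 40.9 TPM) and NK replicate 1 (41.9 TPM), while B cells lay at or below 7.42 TPM. After rescaling it did not overlap (at least 325 TPM in HSPCs and at most 121 TPM in lymphocytes). Snora33, hosted by the ribosomal protein gene Rps12, stood at 9.74, 8.68 and 8.23 TPM in HSPCs and at 1.18 to 5.36 TPM in the 9 lymphocyte libraries, without overlap (1.56 ± 0.35, limma adjusted p = 0.00376). Snora57 stood at 37.2, 42.3 and 42.5 TPM in HSPCs and at 12.4 to 31.7 TPM in lymphocytes, again without overlap (1.01 ± 0.27), although its call as deposited ended without HSPC replicate 2 or 3 (limma adjusted p up to 0.0617).

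The direction of other members in HSPCs depended on the scale. Snora73b was lower as deposited (-0.77 ± 0.26, limma adjusted p = 0.0358) and higher after rescaling (0.71 ± 0.27, limma adjusted p = 0.0304). Snora28, Snora30 and Scarna3b were lower as deposited and had log2 fold changes of 0.10, 0.23 and 0.45 after rescaling, none of them called. Snora74a was lower on both scales (-1.04 as deposited and -1.19 after rescaling), but the second value was not called (limma adjusted p = 0.0784). As deposited, the calls of Snora73b (without B cell 2 or 3, T cell 2, NK 3 or any HSPC library), Snora74a (HSPC 1 or 2), Scarna3b (B cell 2 or 3, HSPC 2 or 3, or NK 2) and Snora28 (10 of 15 libraries, all but B cell 2, T cell 2, NK 1, NK 2 and monocyte 1) ended when 1 library was left out, and the lower members numbered 1 without HSPC replicate 2 (16.2% of all genes in that fit), 2 without HSPC replicate 1, HSPC replicate 3 or B cell replicate 3 (13.2%, 14.0% and 20.7%), and 3 without NK replicate 3 (18.8%).

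As deposited, Snora44 was the called member that fell most in HSPCs (-1.72 ± 0.33, limma adjusted p = 0.00136). It stood at 5.76, 3.95 and 3.62 TPM there, against 8.27 to 27.7 TPM in the lymphocyte libraries. After rescaling its log2 fold change was only -0.35 (limma adjusted p = 0.412). Its neighbours in Snhg12 did not fall with it, since Snora61 stood at 25.4, 29.6 and 32.2 TPM in HSPCs against 10.4 to 33.1 TPM in lymphocytes. The ratio of Snora44 to Snora61, which is free of the scale and was chosen after the values were seen, was 0.226, 0.134 and 0.112 in HSPCs and between 0.769 and 1.41 in the 9 lymphocyte libraries. It was 0.65, 0.292 and 0.243 in monocytes and between 1.105 and 1.45 in PBMC counts. Only the HSPC and monocyte libraries lay below all lymphocyte libraries in this ratio.

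Monocytes were set against HSPCs, the other cell type from bone marrow. As deposited, 24 of 45 members were higher in monocytes (53.3%), fewer than the 92.1% of all genes, and 3 were lower (6.67%, background 0.844%). After rescaling, 5 of 48 were higher (10.4%, background 68.0%) and 15 lower (31.2%, background 5.08%). The median over the members was 1.20 and that over all genes 2.58 as deposited, and after rescaling -0.65 and 1.27. The median of the members thus lay below that of all genes on both scales. The limit of 1 TPM on the mean of 15 libraries also admits genes present mainly in monocytes, which had to be higher there. As deposited, 5628 of 35001 genes had a mean above 10 TPM in monocytes and 570 in HSPCs. The shares and medians of all genes are therefore partly set by the filter, and how far was not tested. All 5 genes of the neutrophil list were detected in the monocyte libraries, where they summed to 1381 to 1490 TPM against 10.97 to 53.5 TPM in HSPCs, and the part of these cells or of the platform in the difference was not tested.

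Of the members, 8 were called in the same direction on both scales. Snora28, Snora70, Scarna3a, Snora74a and Snora43 were higher, and Snora9, Snora52 and Snora69 were lower in monocytes. As deposited, Snora43, Snora26, Snora47 and Scarna6 passed the limit of 1 TPM only through the monocytes, so they had to be higher there, and 3 of these 4 (all but Snora47) are among the 24. On the rescaled values, where 0 members passed through a single cell type, Snora43 was higher by 1.504 ± 0.46 (limma adjusted p = 0.00903). Snora28 stood at 71.3, 46.9 and 52.8 TPM in monocytes and at 2.02, 2.82 and 1.36 TPM in HSPCs (4.25 ± 0.53, limma adjusted p = 1.87e-06; 2.59 ± 0.65 after rescaling). It made up 8.17%, 6.19% and 6.26% of the members' TPM in monocytes and 0.501%, 0.659% and 0.325% in HSPCs, a share that no rescaling changes. Scarna3a, an H/ACA scaRNA within an intron of Cop1, stood at 19.2, 26.8 and 21.2 TPM in monocytes and at 0.764, 2.20 and 0.628 TPM in HSPCs (3.47 ± 0.34).

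In the other direction, Snora9 stood at 3.94, 3.88 and 4.18 TPM in monocytes and at 35.1, 42.7 and 40.0 TPM in HSPCs (-3.01 ± 0.42, limma adjusted p = 6.52e-06). It made up 8.73%, 9.96% and 9.56% of the members' TPM in HSPCs and 0.452%, 0.513% and 0.495% in monocytes. Snora52 was listed at 0 TPM in all 3 monocyte libraries and stood at 5.29, 4.24 and 4.51 TPM in HSPCs (-2.50 ± 0.29). Whether its reads were assigned to the Rplp2 transcript that contains it was not tested. Snora69, hosted by Rpl39, stood at 4.27, 8.501 and 3.93 TPM in monocytes and at 13.2, 11.9 and 13.3 TPM in HSPCs (-1.13 ± 0.33). None of these 3 overlapped between the cell types. Snora73b turned from 0.80 ± 0.31 as deposited to -1.24 ± 0.33 after rescaling, and its call as deposited ended without HSPC 3 or monocyte 1 (limma adjusted p up to 0.116), as that of Snora75 (1.55 ± 0.51) did without monocyte 2 (0.0583).

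**Figure D4:**
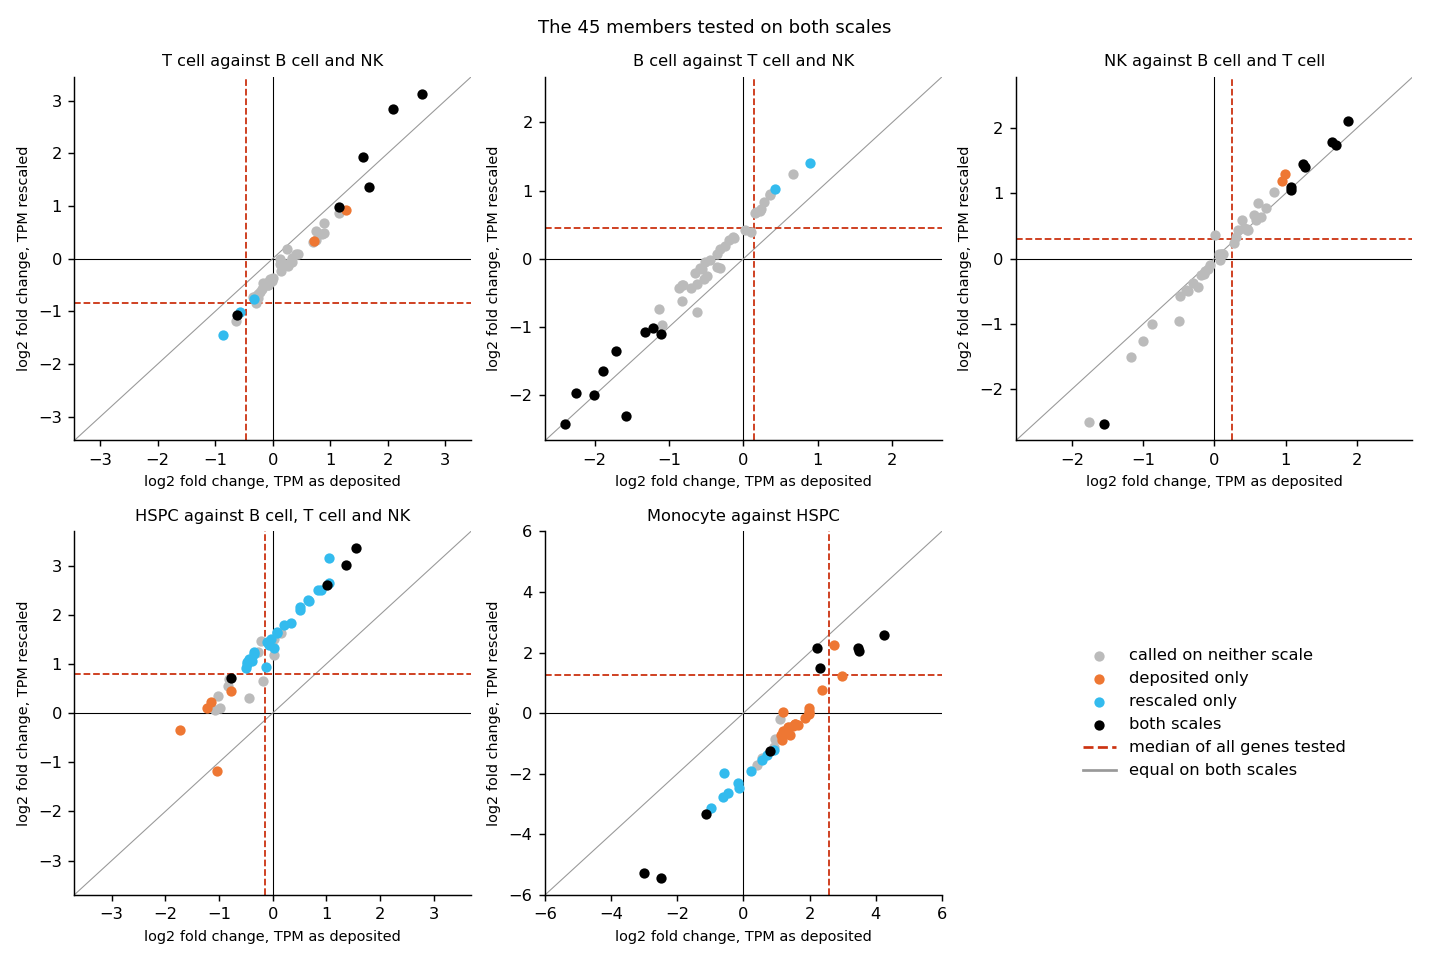
Log2 fold change of the 45 members tested on both scales in 5 comparisons, with deposited TPM on the x axis and rescaled TPM on the y axis; colours give the scale on which limma called a member, and dashed lines the median of all genes tested. In HSPCs and monocytes most points lie away from the diagonal, and 3 members (HSPC) and 8 members (monocyte against HSPC) were called in the same direction on both scales.

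The Scarna genes were scarce, with a sum of 100.2 ± 41.3 TPM in monocytes, 29.8 ± 3.19 in T cells, 20.2 ± 3.49 in NK cells, 16.8 ± 1.82 in HSPCs and 14.8 ± 1.45 in B cells (n = 3 each). After rescaling HSPCs, at 154.8 ± 19.3 TPM, lay above T cells (74.8 ± 3.27), NK cells (60.3 ± 8.66) and B cells (56.8 ± 6.65), and monocytes stood at 204 ± 81.5 TPM. Scarna9 had the widest spread of them, and stood at 65.1, 0 and 14.97 TPM there and at 10.3, 10.8 and 6.49 TPM in T cells. Scarna9 lay at or below 3.07 TPM in B cells, NK cells and HSPCs. Scarna8, an H/ACA scaRNA of the host Haus6, stood at 17.1, 12.8 and 19.6 TPM in monocytes and at 6.20, 8.17 and 6.05 TPM in HSPCs (1.15 ± 0.33 as deposited, -0.88 after rescaling). Scarna3b, within an intron of Dcaf5, stood at 15.6, 7.75 and 17.7 TPM in monocytes and at 1.30 to 2.43 TPM in HSPCs (2.39 ± 0.31). After rescaling the 2 groups overlapped and Scarna3b was not called (0.76 ± 0.39, limma adjusted p = 0.0955). Scarna10 ranged from 0 to 16.5 TPM in monocytes and from 0.360 to 2.48 TPM elsewhere, and Scarna6 and Scarna13 lay at or below 5.96 and 3.10 TPM in every library.

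Of the remaining members named for their known roles, Snora74a, or U19, ranged from 5.45e-04 to 0.859 TPM in HSPCs and from 3.19 to 8.74 TPM in monocytes. Snora62, hosted by Rpsa, ranged from 0 to 10.5 TPM and Snora75, hosted by the nucleolin gene Ncl, from 2.97 to 26.1 TPM over the 15 libraries. Snora64 varied from 6.88 to 42.3 TPM within the monocytes alone. Snora35, which lies in a serotonin receptor gene and is known from brain, is not among the 48. It was at 0 counts in the 9 PBMC libraries, where a count of 0 allows up to 3 counts, or 0.640 CPM (counts per 1000000) in the smallest library.

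The proteins of the H/ACA particle were read as messenger RNA in the same libraries. Of 11 genes listed for this pathway, 9 passed the limit of 1 TPM, and Shq1 and Coil did not. In T cells 6 of the 9 were lower (background 51.2%; Nhp2, Ruvbl2, Gar1, Ruvbl1, Naf1 and Wrap53) and 0 higher, with a median of -0.53 that lay near the -0.46 of all genes. Nhp2 stood at 0.370, 0.944 and 0.933 TPM in T cells against 1.91 to 5.01 TPM in B cells and NK cells (-1.13 ± 0.22, limma adjusted p = 0.00132). In NK cells 7 of 9 were higher (background 20.2%) and 0 lower, with a median of 0.83 against 0.25 over all genes, and Dkc1 stood there at 1.29, 3.37 and 3.42 TPM against 0.325 to 1.43 TPM in B cells and T cells (0.89 ± 0.25, limma adjusted p = 0.0190). In B cells 1 was lower (Nolc1, -0.76 ± 0.24; background 7.74%), and in HSPCs 3 were higher (Nhp2, Ruvbl2 and Naf1; background 7.59%). In monocytes against HSPCs all 9 were higher, as were 92.1% of all genes, a background that the filter partly sets. The list's median of 2.00 lay below the 2.58 of all genes. Naf1 and Wrap53 passed the limit only through the monocytes (0.641 and 0.51 TPM over the other 12 libraries), so they had to be higher there. After rescaling, all 11 genes were tested, and 11 were lower in T cells (background 62.6%), 4 higher in B cells (36.4%), 8 higher in NK cells (18.7%), 11 higher in HSPCs (59.1%) and 2 higher in monocytes (68.0%). Nolc1 was then no longer called lower in B cells (-0.55 ± 0.30, limma adjusted p = 0.161). Terc, the H/ACA RNA of telomerase, stood at 1.35 to 11.02 TPM and was not called in any of the 5 comparisons as deposited. After rescaling limma called it lower in T cells (-1.30 ± 0.43) and in monocytes against HSPCs (-1.95 ± 0.50) and higher in B cells (1.26 ± 0.43) and HSPCs (1.86 ± 0.41), but not in NK cells (0.04 ± 0.43).

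In PBMC total RNA the same genes were quantified in counts estimated by RSEM. The 9 libraries held 4686387 to 9055761 counts, of which the largest gene took 50.5% to 57.0%. Each member had at least 10 counts in every library. The members summed to 18703 to 36208 counts per library. As a share of all counts this was 0.291%, 0.274% and 0.462% for the ct libraries, 0.401%, 0.333% and 0.300% for WT, and 0.425%, 0.392% and 0.451% for Y. The ct replicate 3 had the highest share of all 9 libraries and the other ct libraries the lowest, so ct overlapped both other groups. The members made up 38.9% to 45.7% of member plus Snord counts in PBMCs, against 0.860% to 12.5% of TPM on the surface, but counts are not per length and the protocols differ.

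The 8 members with the highest counts in PBMCs were Snora81, Snora73a, Snora73b, Snora57, Snora65, Snora16a, Snora21 and Scarna2, with Snora81 between 1964 and 3718 counts per library. Per kilobase of annotated length, Snora81 ranked 1 of 48 in PBMCs and 10 on the surface, Snora73a 2 and 4, Snora57 4 and 2, and Snora16a 5 and 1. Snora61, ranked 3 on the surface, ranked 20, and Snora74a, 40 on the surface, ranked 14. The surface rank pools the 15 libraries, and within single cell types Snora61 ranked between 1 (monocytes) and 8 (B cells and NK cells), Snora74a between 31 and 48 and Snora81 between 7 and 17. Across the 48 members, Spearman's rho between PBMC CPM per kilobase and surface TPM was 0.77 for NK cells, 0.76 for B cells, 0.71 for T cells, 0.67 for HSPCs and 0.43 for monocytes, given as a description over genes that share libraries.

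Differences between PBMC groups were tested by quasi-likelihood in edgeR over 11634 genes, all 48 members among them. In WT against ct, 1 member was higher (Snora28; background 0.765%) and 0 lower (background 1.6%). In Y against ct, 1 was higher (Snora75; background 0.266%) and 0 lower (background 0.438%), and in Y against WT 0 were higher (background 0.438%) and 0 lower (background 0.817%) by edgeR and by DESeq2. With no filter on low counts edgeR called 7 members higher in Y against ct (background 0.446%) and 4 higher (background 0.446%) and 1 lower (background 0.791%) in Y against WT. At an unadjusted edgeR p below 0.05 there were 4 higher and 0 lower members in WT against ct (5.79% and 5.97% of all genes), 13 and 0 in Y against ct (3.78% and 4.85%), and 9 and 1 in Y against WT (5.6% and 6.15%). The 3 comparisons share groups. The medians over the members were 0.13, 0.24 and 0.08, against 0.00 over all genes in each.

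Snora75 stood at 28.3, 22.03 and 29.9 CPM in the ct group after TMM scaling, at 31.0, 32.4 and 34.9 CPM in WT libraries and at 44.3, 37.6 and 45.05 CPM in Y libraries. The Y libraries lay above the other 6, with a log2 fold change against ct of 0.65 ± 0.11 (edgeR adjusted p = 0.00853). Its call ended without Y replicate 1 or 3 (edgeR adjusted p up to 0.0850). Snora28 stood at 32.8, 30.6 and 44.2 CPM in ct and at 52.1, 45.9 and 52.6 in WT, without overlap (0.48 ± 0.12, edgeR adjusted p = 0.0409), and its call ended when any library other than ct replicate 3 was left out (edgeR adjusted p 0.0519 to 0.184).

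Without ct replicate 3, 14 of 48 members were higher in Y than in ct (29.2%, background 0.975%), 6 in WT than in ct (12.5%, background 0.765%) and 3 in Y than in WT (6.25%, background 0.546%), and 0 were lower in each (background 0.429%, 1.03% and 0.882%). This library had the highest member share of all 9, so leaving it out favours higher members in both comparisons with ct. The calls and p-values of these fits are therefore no support for a difference. Leaving out any other single library gave 0 higher members in WT against ct and in Y against WT. The 3 higher in Y than in WT were Snora64, Snora65 and Snora31. Snora64 stood at 48.05, 48.2 and 113.5 CPM in ct libraries, at 63.2, 58.3 and 81.6 CPM in WT libraries and at 112.8, 121.9 and 98.6 CPM in Y libraries. Snora65 stood at 124.0, 121.7 and 283.9 CPM in ct and at 259.2, 249.5 and 244.6 in Y. In both, ct replicate 3 lay within or above the range of the Y libraries and the other ct libraries below it, and with all 9 libraries the log2 fold change of Y against ct was 0.66 ± 0.24 for Snora64 and 0.51 ± 0.24 for Snora65, neither of them called (edgeR adjusted p = 0.396 and 0.582). Without it the values were 1.21 ± 0.13 and 1.04 ± 0.14 (edgeR adjusted p = 1.73e-04 and 0.00106). No pathway gene of the 11 was called in PBMCs, with the lowest edgeR adjusted p at 0.297.

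**Figure D5:**
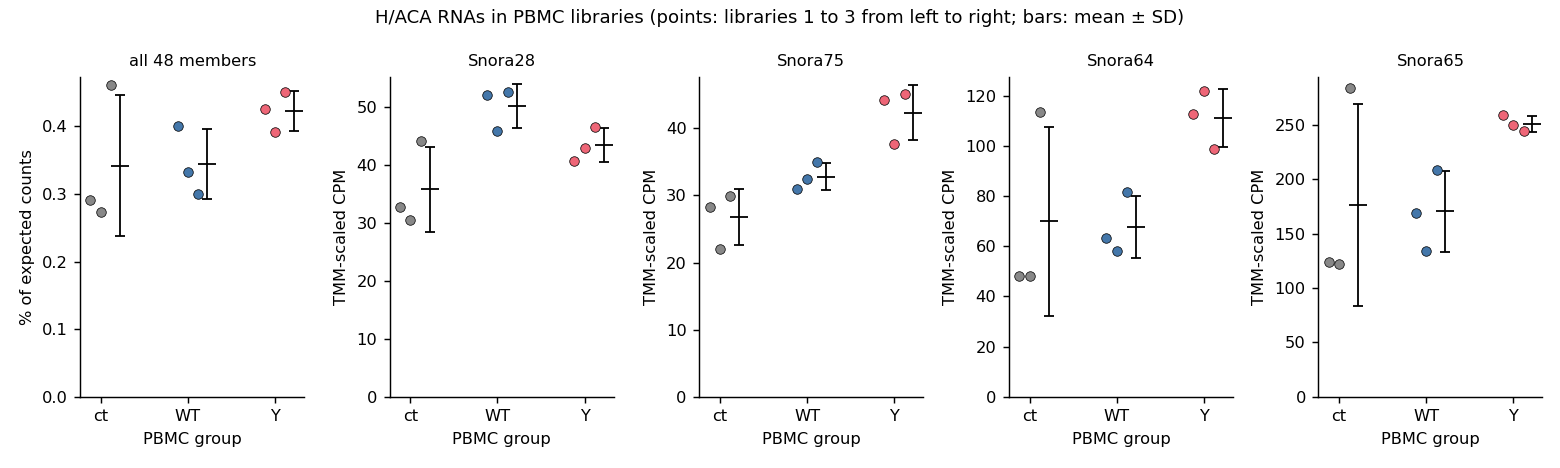
Share of the 48 members in the counts of each PBMC library in % (left) and TMM-scaled CPM of 4 members, with libraries 1 to 3 of each group as points and mean ± SD as bars. The third ct library lies apart from the other ct libraries, at 0.462% of counts against 0.291% and 0.274%.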

How the data were processed

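Surface RNA was measured in 15 AMOUR libraries and total RNA in 9 PBMC libraries. For the former the authors trimmed reads with Trimmomatic, kept 1 read per barcode duplicate and deposited TPM per transcript from Kallisto. The transcript set is not given in the sources used here. TPM keeps no depth, so the depth of these libraries is unknown. The PBMC values were deposited as RSEM's expected counts and were rounded to whole numbers. Their totals ranged from 4686387 to 9055761, and the 50.5% to 57.0% taken by 1 gene limits the precision of scarce genes.

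TPM was summed per gene symbol over the transcripts listed in all 5 tables. Genes with a mean of at least 1 TPM were tested on log2(TPM + 1) with limma 3.58.1 in R 4.3.3, with a mean-variance trend. PBMC counts were tested by quasi-likelihood in edgeR 4.0.16, with TMM factors and its expression filter, with DESeq2 1.42.0 as an alternative. Both scripts were tested on simulated data. Groups came from the labels. The members, gene lists and tests were chosen with earlier results of these data known. Genes were named if they were among the 12 most abundant members on the surface, among the 3 largest called changes per direction and comparison at a mean of at least 10 TPM, among the 8 highest in PBMCs or called there, or listed for their role (Snora24, Snora35, Snora62, Snora63, Snora64, Snora73a, Snora73b, Snora74a, Snora75, all Scarna genes and the pathway list). Snora63 is not analysed here. Other called members are named to complete a count, and for some of them values are given as well. Snora52 falls outside the rule too, although its sequence and values are printed. Sequences and positions are from GENCODE M21 (GRCm38), and the surface tables use later identifiers, so their lengths may differ.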

Additional observations from a re-analysis of the deposited data

How the results depend on the processing

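Depth is unknown for the surface libraries, each group has 3 libraries, and monocytes differ in platform. On rescaled TPM the summed members stood at 3859 TPM in HSPCs, 1687 in monocytes, 1362 in NK cells, 1155 in T cells and 1056 in B cells. Rescaling changed the number of lower members in T cells from 1 to 4, of higher members in B cells from 0 to 2, of higher and lower members in HSPCs from 3 and 6 to 29 and 0, and in monocytes against HSPCs from 24 and 3 to 5 and 15. Among members under the naming rule it reversed Scarna3b (0.45), Snora28 (0.10) and Snora73b (0.71) in HSPCs and Scarna2 (-0.73), Scarna8 (-0.88), Snora21 (-0.71), Snora23 (-0.044), Snora33 (-0.40), Snora73b (-1.24) and Snora75 (-0.35) in monocytes. That scale multiplies HSPC values most, and the cause of the other moves was not tested. Percentages after counts here are the share of all genes called in the same fits. With no filter on low values 4 members were higher (1.97%) and 0 lower (4184 of 35001 genes) in T cells and 1 lower in HSPCs (5.59%). At a mean of at least 10 TPM, where 18 members remain, 4 were higher in T cells (16.2%), 5 lower in B cells (20.0%), 4 higher (28.6%) and 0 lower (6.63%) in NK cells, 3 lower in HSPCs (43.9%) and 8 higher in monocytes (92.1%). With log2(TPM + 0.1) 5 were higher in HSPCs (10.4%). Without the monocyte libraries 1 was higher in B cells (26.0%), 4 were lower in NK cells (5.67%) and 5 higher in HSPCs (7.37%). Without Scarna2, Scarna9 and Scarna17, chosen after seeing the data, 0 were lower in NK cells. With no filter on low counts, 7 members were higher in Y against ct and 4 higher and 1 lower in Y against WT (0.446%, 0.446% and 0.791% of all genes).

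Leaving out each library in turn gave 3 to 11 higher (3.25% to 4.75%) and 0 to 3 lower (24.0% to 62.7%) members in T cells, 0 to 1 (11.6% to 24.0%) and 6 to 11 (5.41% to 9.61%) in B cells, 6 to 9 (8.63% to 39.5%) and 0 to 2 (2.45% to 3.68%) in NK cells, 2 to 4 (4.23% to 9.22%) and 1 to 7 (13.2% to 28.3%) in HSPCs, and 22 to 28 (91.0% to 92.3%) and 3 to 4 (0.592% to 0.982%) in monocytes. In PBMCs it gave 0 to 6 higher members in WT against ct (0.465% to 1.08%), 0 to 14 in Y against ct (0.141% to 0.975%) and 0 to 3 in Y against WT (0.216% to 0.546%), with 0 lower in each (0.141% to 1.43% over the 3). Summed TPM ranged from 234 to 299 in B cells, 414 to 494 in T cells, 371 to 532 in NK cells, 411 to 424 in HSPCs and 801 to 858 in monocytes. On rescaled TPM, with libraries left out as an alternative added after seeing the data, 20 to 33 members were higher (50.7% to 60.5%) and 0 to 1 lower (6.56% to 8.53%) in HSPCs, 3 to 5 (2.04% to 2.89%) and 2 to 6 (44.3% to 68.4%) in T cells, 1 to 4 (25.5% to 40.9%) and 4 to 10 (5.29% to 8.4%) in B cells, 5 to 9 (9.8% to 35.5%) and 0 to 2 (2.22% to 3.53%) in NK cells, and 3 to 7 (63.5% to 70.3%) and 12 to 17 (4.03% to 5.46%) in monocytes. The rescaled counts that moved by over 1.5 times were 4 lower in B cells without B cell replicate 2, 4 higher in B cells without T cell replicate 2 and 1 higher without any 1 B cell library, NK replicate 1 or T cell replicate 1, 3 higher in T cells without T cell replicate 2 or 3 and 2 lower without B cell replicate 3, 5 higher in NK cells without NK replicate 3, 2 lower in NK cells without B cell replicate 1 or any 1 monocyte library and 0 lower without NK replicate 2, 3 higher in monocytes without HSPC replicate 2, and 1 lower in HSPCs without HSPC replicate 3. The largest fall in number was that of higher members in HSPCs from 29 to 20 without HSPC replicate 1 (53.3%). Same-numbered libraries of different groups had deviations that correlated at -0.258 to 0.457 on the surface and at -0.0477 to 0.0641 in PBMCs, so not every pair was above 0.1, and no label ties equal numbers to a shared animal or day. Of the 15 surface libraries 11, and of the 9 PBMC libraries 3, correlated best with their own number, which for the surface libraries is a hint of pairing from the data and not from the design. With the replicate block, lower members in T cells numbered 2 (52.8%) and higher ones 8 (4.18%), and the counts of the other comparisons moved by at most 1. Over 43 calls of named members, 850 values under alternatives kept the call in 738 cases, lost it in 102 and reversed in 10. Most of these values are leave-one-out fits, which share most of their libraries (549 kept and 79 lost). Under rescaling alone 23 calls were kept, 8 were lost and 10 reversed in sign. Of the reversed members only Snora73b was called in the opposite direction, in HSPCs and in monocytes.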
